A study of Drosophila melanogaster with 4 samples.

Results

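The starts of noncoding RNA (ncRNA) genes were examined among the transcription start sites (TSSs) of Drosophila melanogaster embryos. A retained TSS was taken as an ncRNA start where it lay within 200 bp, on the same strand, of a transcript start of a gene with the biotype ncRNA in the Ensembl BDGP6 annotation, and was not within 200 bp of a protein-coding start on that strand. Of 46925 retained TSSs, 570 lay near an ncRNA start, 33 of these were left out because a protein-coding start lay within 200 bp too, and 537 (1.14%) remained. They were nearest to 518 genes.

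The embryos were of the wild-type strain Canton S, were collected from 0 to 12 h of development, and carried no mutation, transgene or treatment that the labels name. There were 3 capped small RNA sequencing (csRNA-seq) libraries and 1 input library, and embryos were the only tissue. A collection of whole embryos mixes many cell types and stages, so fewer cells of a type and less RNA per cell cannot be told apart. The input was not analysed here.

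csRNA-seq enriches short RNAs that carry a 5′ cap, so the first base of a read marks where RNA polymerase II began, whether or not the finished RNA is stable. Long ncRNAs are transcripts without a long open reading frame that are often capped and spliced like mRNAs. Some are precursors: a microRNA host is the primary transcript from which a hairpin is cut and processed to the mature microRNA, and a snoRNA host releases, from its introns, the small nucleolar RNAs that guide modification of ribosomal RNA. Others act as RNA, such as roX1 and roX2, which join the complex that raises transcription of the single X chromosome of males, or overlap a coding gene on the other strand.

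Each TSS carried 1 coverage value, given in reads per 10000000. Every value was, within a relative tolerance of 1e-09, a whole number of reads from 1 of 3 libraries of 7299457, 5931389 and 4070746 reads, and 1 read was worth 1.37, 1.69 or 2.46. The ncRNA starts took their values from these libraries in 24.4%, 40.2% and 35.4% of cases, against 22.9%, 43.1% and 34.1% over all retained TSSs. No spread between replicates can be had from a single value, and no test over samples was made. The 95% intervals given with shares (Wilson) and medians (order statistics) cover the counting of TSSs or genes alone.

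The name long ncRNA did not hold for every member, because the annotation gives the biotype ncRNA also to microRNA entries. Of the 3304 annotated ncRNA genes, 485 were mature microRNAs, 262 were hairpins and 2511 had at least 200 bases of exon. The 537 TSSs comprised 467 at the starts of 448 long ncRNA genes, 65 nearest to a microRNA entry and 5 at small or structured RNAs. The TSSs are therefore called ncRNA starts, with the long ncRNA genes given apart where they differ. In addition, 9 of the 537 also lay near the start of another noncoding type, mostly a snoRNA inside its host, and 2 belonged to clusters that also held a TSS near a coding start.

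Most annotated ncRNA genes had no TSS at a start in these embryos. A TSS of the rule was found at 673 of 3304 ncRNA genes (20.4%, 95% interval 19.0 to 21.8), against 9601 of 13986 protein-coding genes (68.6%, 67.9 to 69.4). The 673 genes exceed the 537 TSSs because 1 TSS can count for several genes, such as a hairpin and its mature microRNAs. Of the 673, 218 were microRNA entries, and the interval does not allow for shared TSSs. A TSS at any transcript start of a gene counted, and no share of genes was adjusted for the number of starts per gene. At 43 further ncRNA genes the only retained TSS was also near a coding start. At 116 others a TSS of the full list was at the start but the cluster was represented elsewhere, and 2472 genes had no TSS within 200 bp. Without the microRNA entries the count was 455 of 2557 genes (17.8%).

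Coverage at ncRNA starts was low and very uneven. The median was 7.37 (95% interval 7.37 to 8.43, quartiles 4.91 and 20.2, n = 537), against 46.7 at protein-coding starts (45.2 to 48.9, n = 10910) and 4.91 at TSSs away from any annotated start (n = 35150). A coverage of at least 10 was reached by 224 ncRNA starts (41.7%, 37.6 to 45.9), by 81.8% of coding starts and by 13.8% of TSSs away from starts. Over all retained TSSs this share was 30.2%, so ncRNA starts lay above the background and below the coding starts. At 228 ncRNA starts (42.5%) the value rested on 3 reads or fewer, against 11.3% of coding starts and 57.1% of all retained TSSs. At the other end, 56 ncRNA starts (10.4%, 8.12 to 13.3) had a coverage of at least 100, near the 9.0% of all retained TSSs and below the 34.8% of coding starts.

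All ncRNA starts together held 0.991% of the coverage of the retained list. The 10 most covered held 52.9% of that and the 25 most covered held 77.3%. Of the 10, 5 were at microRNA hosts, 3 at intergenic ncRNAs and 2 at ncRNAs antisense to a coding gene. The plot of coverage by kind of ncRNA gene shows this tail.

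**Figure D1:**
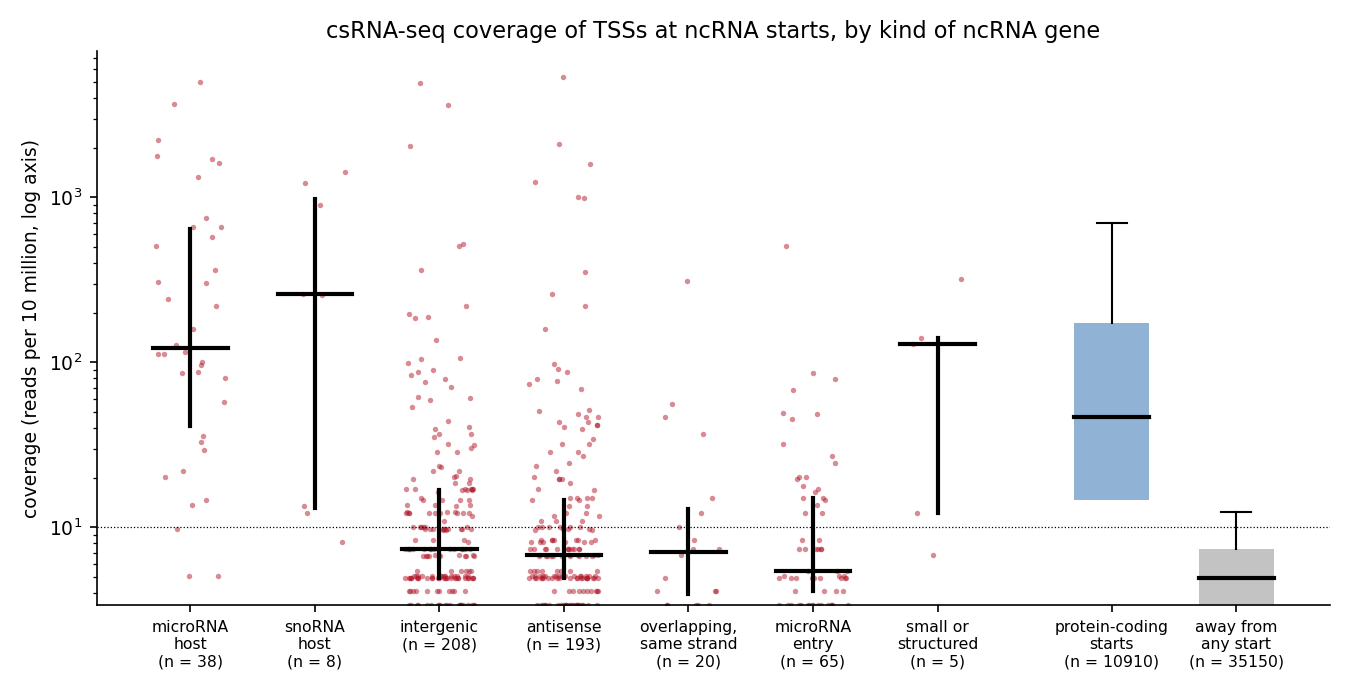
Coverage of each ncRNA-start TSS (red points; reads per 10000000, log axis) by kind of ncRNA gene, with the median (wide line) and quartiles (vertical line), beside the quartiles (box), median and 90th percentile (whisker) of protein-coding starts and of TSSs away from any start. The dotted line marks a coverage of 10. Medians were 122 at microRNA hosts and 259 at snoRNA hosts, against 7.37 at intergenic and 6.85 at antisense ncRNA starts.

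The starts of genes that host small RNAs were used more often, and with a higher median coverage, than those of the other long ncRNA genes. Of 37 annotated microRNA hosts, 30 had an ncRNA-start TSS (81.1%, 65.8 to 90.5), and of 10 snoRNA hosts, 8 did (80.0%, 49.0 to 94.3). The share was 21.5% (187 of 868, 18.9 to 24.4) for antisense ncRNA genes, 14.8% (206 of 1390, 13.0 to 16.8) for intergenic ones and 9.45% (19 of 201, 6.14 to 14.3) for those that overlap a coding gene on its own strand. A host was a gene with at least 200 exon bases that encloses a microRNA hairpin or snoRNA gene on its strand, so these groups come from the annotation and not from coverage. For the mir-4973 host, lncRNA:CR45347, the only ncRNA-start TSS (16.4 from 12 reads) lay inside the hairpin, on the first base of a mature microRNA. It counts for 1 of the 30 hosts and also among the TSSs nearest to a microRNA entry. The intervals of both host groups lay above those of the other long ncRNA groups, and above the shares of microRNA entries (29.2%) and of small or structured RNAs (5 of 51, 9.80%, 4.26 to 21.0).

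The 38 TSSs at microRNA hosts had a median of 122 (86.0 to 366), and 35 of them (92.1%, 79.2 to 97.3) reached 10 where the background was 30.2%. The 8 at snoRNA hosts had a median of 259 and 7 of them reached 10. The 5 at small or structured RNAs had a median of 130.2 and ran from 6.85 to 321, and 3 of them lay over 100 bp from the annotated start. At the 421 long ncRNA starts that host neither, the median was 7.37 (6.74 to 8.22) and 156 (37.1%, 32.6 to 41.8) reached 10. The 46 host TSSs were 8.57% of the ncRNA starts and held 44.6% of their coverage.

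Among the microRNA hosts, the start of lncRNA:CR43314, which holds mir-bft, was the most covered. It lay at chr2L:11971089 on the minus strand, 5 bp inside the annotated start, with a coverage of 5031 from 2048 reads. The start that precedes mir-276a, in lncRNA:CR46006 (chr3L:10364019, plus strand), had 3685 from 1500 reads and fell on the annotated base. The host of its paralogue mir-276b, lncRNA:CR46004, had 87.7 from 52 reads. The mir-276a start was thus far above the mir-276b start, each in a value from a different library.

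The bantam microRNA promotes growth and blocks cell death in flies, and its host lncRNA:CR43334 started at chr3L:628435 with a coverage of 2218 from 903 reads. A second annotated start of that gene, at chr3L:639721, had 81.1 from 33 reads of the same library. mir-10 lies in the Antennapedia complex of Hox genes, and its host lncRNA:CR42651 (chr3R:6816378, minus strand) had 1791 from 729 reads. The nearest coding start was that of the Hox gene Dfd, 24542 bp away, and the most covered start of Dfd had 169 from 123 reads. The bantam host therefore used mainly its upstream start, and the mir-10 host start was more covered than the Hox promoter next to it.

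mir-14, known as a suppressor of cell death, had its host start (lncRNA:CR43651, chr2R:9552850) at 1699 from 1240 reads. The shared host of mir-279 and mir-996, microRNAs that limit the formation of certain sensory neurons, is lncRNA:CR31044, which started at its annotated base (chr3R:29214562) with 1629 from 966 reads. The host of mir-184, lncRNA:CR44206, had 1336 from 544 reads at chr2R:13337333 and 244 from 178 reads at an upstream start, chr2R:13344802. With these, 7 microRNA hosts had a start of 1000 or more.

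Lower in the order stood hosts of several microRNAs known from particular tissues. The mir-9a host, whose microRNA acts in sensory organ formation, had 749 from 444 reads. For mir-8, the fly member of the miR-200 family, both starts of lncRNA:CR43650 were used to a like degree, with 666 from 271 reads and 580 from 236 reads of the same library. The host of the neural mir-124 had 310 from 126 reads at chr2L:17566112 and 115.5 from 47 reads at an upstream start. Values were lower again for the host of the muscle microRNA mir-1, with 86.0 from 35 reads and 29.5 from 12 reads at its 2 starts. None of these tissues was separated here, so the values describe the whole embryo. The host of mir-277 and mir-34 had 506, that of the mir-2c and mir-13 cluster 366, and that of mir-375 112. let7C, which carries let-7, mir-100 and mir-125 and is known for its role at metamorphosis, had 22.1 from 9 reads at its annotated base.

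The 7 microRNA hosts without an ncRNA-start TSS were accounted for one by one. No TSS was listed at the starts of 4, namely the hosts of mir-92b, mir-987, mir-985 and mir-288. The host of mir-281 had its TSS also near the start of a coding gene. For the host of the mir-309 cluster, lncRNA:CR44504, whose microRNAs are expressed early in the zygote and act on maternal mRNAs, a TSS of 37.1 stood at the start in the full list, but the cluster was represented by a TSS of 79.2 inside the mir-3 hairpin. For the host of mir-968 and mir-1002 the values were 26 at its start and 48.9 at the retained TSS, which lay inside the mir-1002 hairpin.

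**Figure D2:**
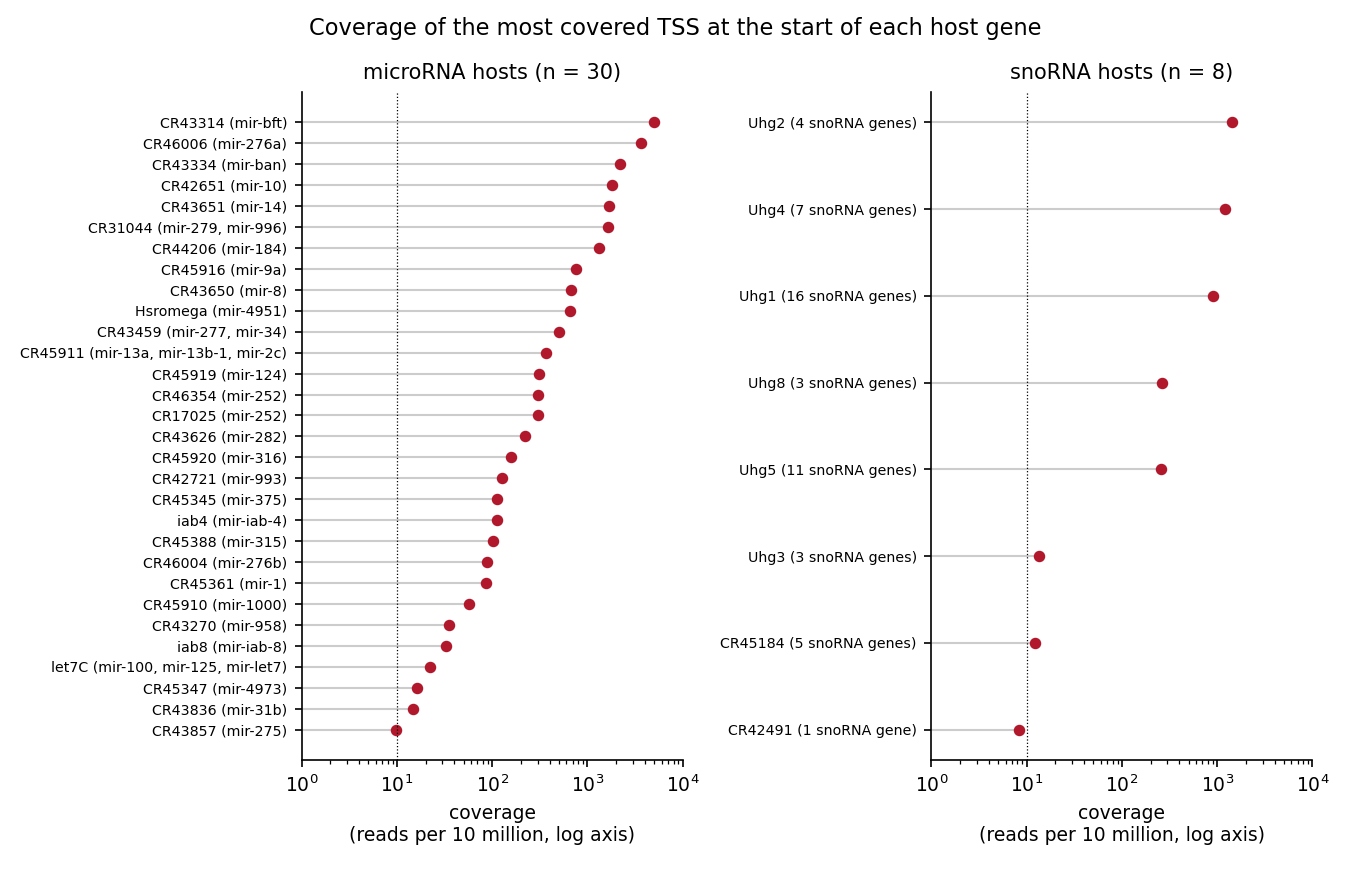
Coverage (reads per 10000000, log axis) of the most covered ncRNA-start TSS of each microRNA host (left, with its microRNAs) and snoRNA host (right), 1 point per gene. The dotted line marks a coverage of 10. The microRNA hosts spread from 9.83 (mir-275) to 5031 (mir-bft), and 2 overlapping host genes of mir-252 share 1 TSS. The TSS of the mir-4973 host lay inside the hairpin.

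The snoRNA hosts fell into strongly and weakly used ones. Uhg2 (chr2L:9895002) had 1428 from 1042 reads, Uhg4 1218 from 496 reads and Uhg1 900.1 from 657 reads. These genes carry 4, 7 and 16 snoRNA genes inside them. Uhg8 and Uhg5 followed with 260.3 from 190 reads and 258 from 153 reads, and Uhg4, Uhg1 and Uhg5 started on the annotated base. The remaining hosts were close to the ncRNA median. Uhg3, lncRNA:CR45184 and lncRNA:CR42491 had only 13.5, 12.3 and 8.22. Uhg7 had 6.74 at its start in the full list, in a cluster represented elsewhere by 24.6, and lncRNA:CR31647 had no TSS. The 8 snoRNA host TSSs lay in wide clusters, with a median of 26 TSSs over 519 bp.

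Among ncRNAs that host nothing, the most covered start belonged to asRNA:bsAS, transcribed antisense to bs, the gene of the fly serum response factor. It lay inside bs at chr2R:24369689 on the minus strand, exactly at the annotated start, with 5360 from 3179 reads, the highest value of all ncRNA starts. The most covered start of bs itself had 155 from 63 reads. Next came the intergenic, single-exon lncRNA:CR45433 at chr3L:19861458, with 4972 from 2949 reads, also on the annotated base. lncRNA:CR43887 (chr3L:11693136) had 3643 from 2659 reads. Its nearest coding start was that of CG14135, whose most covered start had 13.7. lncRNA:CR43870 had 2108 from 1539 reads and lncRNA:marge had 2059 from 1221 reads. These 5 genes were named for their coverage, and each value was carried by over 1000 reads of 1 library.

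The ncRNA starts that lay inside a coding gene on the other strand mostly had lower coverage than the gene they oppose. Of the 537 ncRNA starts, 167 (31.1%) lay inside a coding gene on the other strand, 50 (9.31%) inside a coding gene on its own strand and 320 (59.6%) outside coding genes. The 167 were taken by position, whatever the kind of ncRNA gene, and include microRNA entries and hosts. They differ from the antisense group above, which held 193 TSSs. For 147 of the 167 the opposed gene had a retained TSS at a start of its own, and its most covered one was higher than the antisense TSS in 134 (91.2%, 85.5 to 94.8). Taking the most covered start of a gene favours the coding side. Coding starts as a whole also had the higher median, 46.7 against 7.37 at ncRNA starts. The same pairing was not made for other TSSs, so the share is not read as particular to antisense ncRNAs. Medians were 7.37 on the antisense side and 162 at the coding start. The antisense TSS was higher in 12 pairs, bs among them. Another was lncRNA:CR43461, with 1236 from 902 reads inside CG3168, whose own start had 19.7 from 8 reads. For asRNA:CR46484 the order was the other way, with 989.7 on the antisense side and 2104 at the start of Pcif1.

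Among long ncRNA genes that host nothing, those with 2 or more annotated exons more often had a TSS. Distinct exons were counted over all transcripts of a gene. A gene with several unspliced transcripts can thus count as having 2 or more, and splicing itself was not measured. Such a gene can also have more annotated starts at which a TSS counts, and the shares were not adjusted for this. Of 957 genes with 2 or more exons, 221 had one (23.1%, 20.5 to 25.9), against 191 of 1502 with a single exon (12.7%, 11.1 to 14.5). A TSS of at least 10 was found at 9.72% (8.0 to 11.8) of the genes with 2 or more exons and 4.06% (3.17 to 5.18) of the single-exon genes. The share of ncRNA genes with a TSS ran from 17.2% (14.5 to 20.3) on 3L to 24% (20.7 to 27.7) on 2R among the large arms, and was 23.0% (19.5 to 26.9) on X. On the small chromosome 4 it was 60.0% (18 of 30 genes, 42.3 to 75.4), where 92.5% of the 80 coding genes had one, and on Y it was 1 of 28.

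A list of 29 characterised ncRNAs was looked up as well. In the annotation, 24 were ncRNA genes, and 18 of these had an ncRNA-start TSS, 15 with a coverage of at least 10, beside 20.4% and 8.32% of all 3304 ncRNA genes. The list was drawn up with earlier results of these data known. For the X dosage compensation RNAs, roX1 had 1008 from 598 reads (chrX:3862057, minus strand) and roX2 had 197 from 80 reads (chrX:11579096, plus strand). The roX1 cluster was broad, with 80 TSSs over 1590 bp and 38.6% of its coverage at the retained base. Hsromega, which is induced by heat shock and organises nuclear speckles, had 660.3 from 482 reads without any heat shock named in the labels. Its annotated gene also encloses mir-4951, and it is therefore counted among the microRNA hosts.

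The ncRNAs of the bithorax complex, the locus of the Hox genes Ubx, abd-A and Abd-B, differed widely in coverage. iab4 had 112 from 82 reads at its annotated start (chr3R:16850230), but a TSS 168 bp upstream of the mir-iab-4 hairpin (chr3R:16856107) had 511 from 208 reads and was the most covered of all microRNA entries. On the other strand, the 3 starts of iab8 had 32.9 from 24 reads, 20.2 from 12 reads and 5.06 from 3 reads. bxd, the ncRNA upstream of Ubx, had 8.43 from 5 reads, 3 bp from its annotated start. The iab-4 strand thus had higher coverage than the iab-8 strand, and bxd was near the median of the ncRNA starts.

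Of the remaining listed genes, sphinx on chromosome 4 had 76.7, yar, which lies between yellow and achaete, had 31.9, and cherub, a neuroblast ncRNA, had 4.1 from 3 reads. The RNA of RNase MRP had 12.3 from 5 reads. For 1 copy of 7SL RNA, the RNA of the signal recognition particle, the value was 6.85 from 5 reads. Both TSSs lay inside the RNA, at chr3R:23730255 for RNase MRP (annotated start 23730429) and at chr3R:6822540 for 7SL (annotated start 6822500). Whether these reads came from capped RNA was not tested. The RNA of RNase P had 5.06 in the full list only. acal, noe, CRG and the other 7SL copy had no listed TSS, which says only that none passed the calling minimum there. The names msa, bft, VINR, Uhg6 and 7SK were not found as ncRNA genes of the annotation.

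The 65 TSSs nearest to a microRNA entry were weaker than the host starts. Their median was 5.48 (4.91 to 7.37) and 22 reached 10 (33.8%, 23.5 to 46.0), near the background of 30.2%. Of them, 36 lay inside the hairpin, 21 upstream of it and 8 downstream of its start, and 20 of the 36 were also inside a coding gene on the same strand. The most covered inside a hairpin was the mir-3 TSS (79.2 from 47 reads), followed by mir-184 (68.5 from 50 reads). Each of these lay 6 bp upstream of the start of a mature microRNA. The library protocol degrades RNAs with a 5′ monophosphate before ligation, and whether uncapped RNA contributed to these TSSs was not tested.

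The TSSs of high coverage lay nearer to the annotated start than those of low coverage. Of all ncRNA starts, 184 were within 10 bp of the annotated base (34.3%, 30.4 to 38.4), against 50.8% (49.8 to 51.7) of coding starts and 49.5% of all retained TSSs within 200 bp of any start. The median distance was 31 bp at ncRNA starts and 10 bp at coding starts, and 137 ncRNA starts (25.5%) were over 100 bp away, against 4.45% of coding starts. With a coverage of at least 100, 40 of 56 ncRNA starts were within 10 bp (71.4%, 58.5 to 81.6), against 62.2% (60.6 to 63.7) of 3802 coding starts, with intervals that overlap. In this class 26.8% (17 to 39.6) of ncRNA starts were on the annotated base itself, against 8.44% (7.60 to 9.37) of coding starts. Under a coverage of 10, 24% (19.6 to 29.0) of ncRNA starts and 42.2% of coding starts were within 10 bp. Of the 38 microRNA host TSSs, 30 were within 10 bp and none over 100 bp away.

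**Figure D3:**
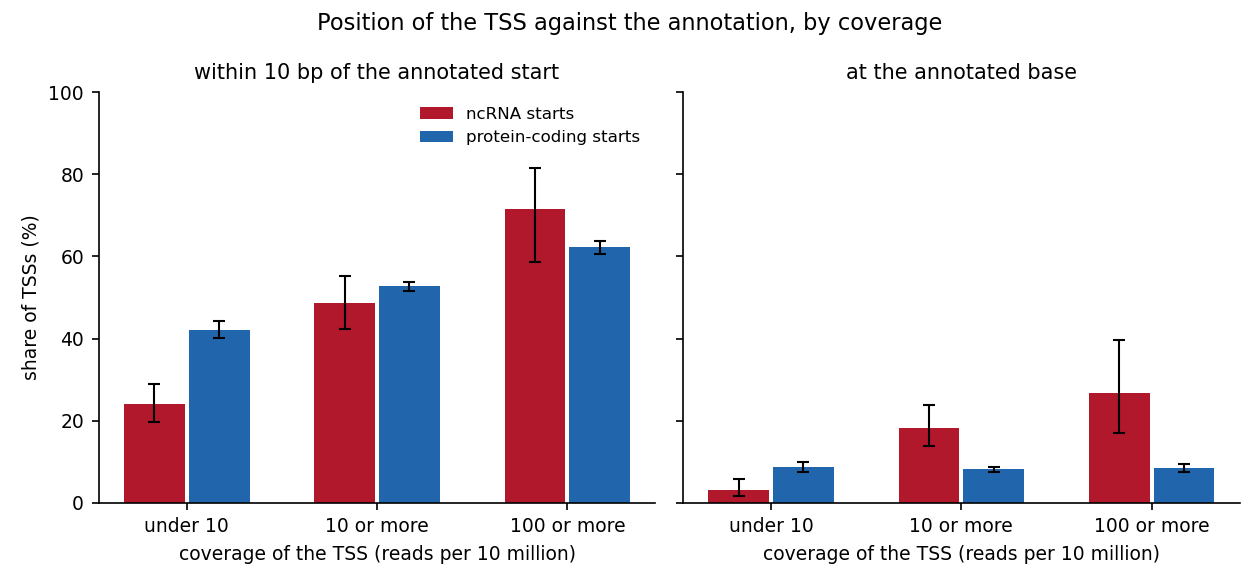
Share of TSSs (%) within 10 bp of the annotated start (left panel) and on the annotated base (right panel) by coverage, for ncRNA starts (red) and protein-coding starts (blue). Bars carry 95% Wilson intervals. The share on the annotated base was 26.8% at ncRNA starts and 8.44% at coding starts of 100 or more.

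Membership depended on the limit of 200 bp. Of the 537 ncRNA starts, 137 (25.5%) were over 100 bp away, and a limit of 500 bp gave 863. The last ncRNA starts inside the limit of 200 bp were lncRNA:CR45808 at 196 bp (3.37), lncRNA:CR45887 at 197 bp (4.91) and asRNA:CR43876 at 199 bp (7.37). Just outside lay TSSs of lncRNA:CR44718 and asRNA:CR43615 at 201 bp, with 6.85 and 3.37, and of lncRNA:CR43241 at 202 bp, with 661 from 269 reads. The last would have ranked among the 25 most covered.

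Initiation at ncRNA starts was spread over fewer positions than at the more covered coding starts. A cluster is a group of TSSs on a strand whose windows of 200 bp on each side overlap or touch. A single TSS made up the cluster at 203 ncRNA starts (37.8%, 33.8 to 42.0), at 12.2% of coding starts and at 71.7% of TSSs away from starts. In the 255 ncRNA clusters with 3 or more TSSs, the median was 6 TSSs over 155 bp, against 14 over 134 bp at coding starts. At least 50% of the coverage lay on the retained base in 88 of these 255 (34.5%, 28.9 to 40.5), which is close to coding clusters (34.8%) and to all clusters of this size (31.7%).

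The similar totals hid differences once clusters of like coverage were set side by side. In clusters with a summed coverage of 100 to 1000, 37 of 74 ncRNA clusters had at least 50% on 1 base (50%, 38.9 to 61.1), against 30.4% (29.2 to 31.7) of coding clusters and 41.6% (37.4 to 45.8) of clusters away from starts. From 10 to 100 the share was 21.0% (15.4 to 28) for ncRNA clusters, 30.0% (28.2 to 31.9) for coding clusters and 23.6% (22.4 to 24.9) for clusters away from starts. At 1000 or more it was 75% (18 of 24, 55.1 to 88.0) and 58.1% (55.6 to 60.7), with intervals that overlap. Compared with coding clusters, ncRNA clusters were thus more often concentrated on 1 base from 100 to 1000 and less often from 10 to 100, where the intervals only just failed to overlap. With 5 bp on each side of the base counted, the difference from 10 to 100 was lost (56.7%, 48.9 to 64.2, against 59.7%, 57.7 to 61.6), and that from 100 to 1000 was not (78.4%, 67.7 to 86.2, against 59.2%, 57.9 to 60.6).

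At the microRNA hosts, 23 of 34 clusters had 50% or more on 1 base (67.6%, 50.8 to 80.9), at the snoRNA hosts 2 of 8 (25.0%, 7.15 to 59.1), and at the ncRNA genes that host neither 63 of 213 (29.6%, 23.9 to 36.0). The hosts were also more covered, and from 100 to 1000 the intervals overlapped, with 68.4% (46.0 to 84.6) of 19 microRNA host clusters and 45.3% (32.7 to 58.5) of 53 clusters of genes that host neither. lncRNA:CR43461 had 93.6% of its cluster on 1 base and lncRNA:CR45433 had 91.7%. The mir-276a start had 79.9%, the bantam start 79.1% and Uhg2 26.4%.

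**Figure D4:**
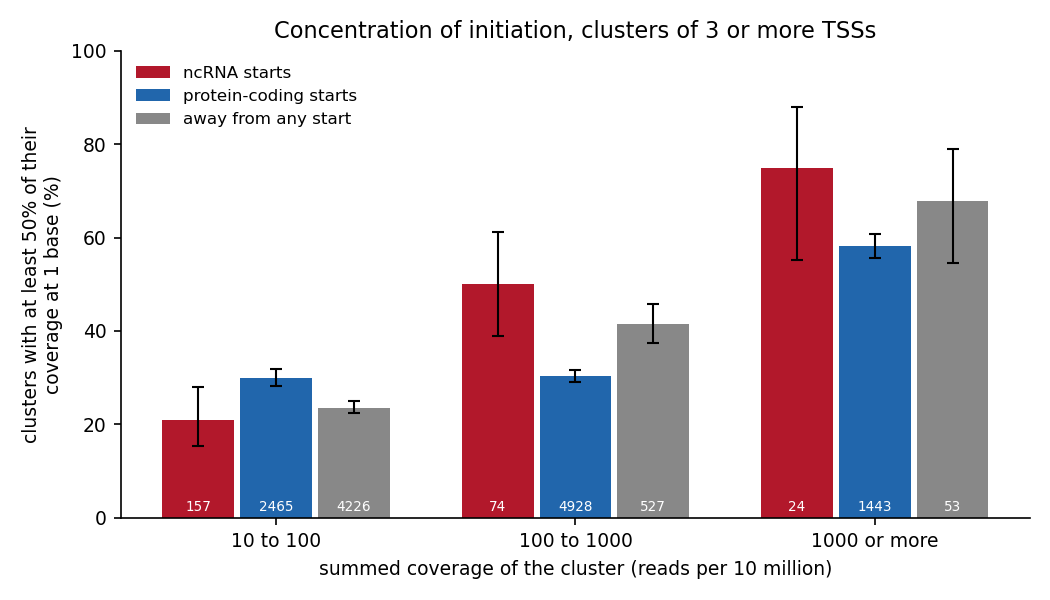
Clusters (%) in which 1 base held 50% or more of the coverage, among clusters of 3 or more TSSs, by summed coverage (reads per 10000000), for ncRNA starts (red), protein-coding starts (blue) and TSSs away from any start (grey). Bars carry 95% Wilson intervals and the number of clusters. From 100 to 1000 the share was 50% at ncRNA starts and 30.4% at coding starts.

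The nearest coding start of either strand was at a median of 2051 bp from an ncRNA start (quartiles 579 and 5932), and 196 ncRNA starts (36.5%, 32.5 to 40.7) had one within 1000 bp. This share was 27.2% for TSSs away from starts and 44.2% for all retained TSSs, which include those at coding starts. An opposite-strand coding start lay within 500 bp upstream, as in a divergent promoter, at 91 ncRNA starts (16.9%, 14.0 to 20.4). This was above the 11.1% of all retained TSSs and the 5.99% of TSSs away from starts, and below the 27.3% (26.5 to 28.1) of coding starts. Within 200 bp the shares were 9.12% (6.97 to 11.9) at ncRNA starts and 8.70% (8.18 to 9.24) at coding starts. An opposite-strand TSS of the list, of whatever origin, lay within 500 bp upstream of 212 ncRNA starts (39.5%, 35.4 to 43.7) and of 43.7% of coding starts, against 22.7% of TSSs away from starts and 27.8% of all retained TSSs.

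In the divergent pairs with values on both sides, the coding side was more often the higher one. The coding value was that of the most covered retained TSS at an opposite-strand coding start up to 1000 bp upstream. It could thus lie beyond the annotated start that set the pair. For lncRNA:CR44748, the start of pirk was 165 bp away and the TSS compared 897 bp away. The gap was -51 bp for TER94 and -68 bp for CG12926, whose TSSs lay downstream. A maximum over this range favours the coding side. A retained TSS was found on the coding side of 75 of the 91 pairs, and it was higher than the ncRNA start in 59 (78.7%, 68.1 to 86.4) and lower in 15. With at least 4 reads at the ncRNA start the coding side was higher in 62.2% of 37 pairs (46.1 to 75.9), an interval that includes 50%. This minimum left out pairs with a low ncRNA value only, which favours the ncRNA side. Medians were 7.37 at the ncRNA side and 56.2 at the coding side. ncRNA starts with a divergent coding start reached a coverage of 10 in 29 of 91 cases (31.9%, 23.2 to 42.0), against 195 of 446 without one (43.7%, 39.2 to 48.4), and these intervals overlap. In the wider class up to 1000 bp, the coding side was higher in 90 of 116 pairs (77.6%).

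The 5 pairs with the most covered ncRNA start, within 1000 bp, all had the opposite order. They included 3 snoRNA hosts. asRNA:CR45270 had 1585 from 940 reads, and the start of grh 71 bp upstream, which encodes the epidermal transcription factor grainy head, had 9.59 from 7 reads, although the most covered start of grh elsewhere had 2704 from 1604 reads. Uhg2 had 1428 against 17.2 for Bka, Uhg4 had 1218 against 20.2 for Boot, and Uhg1 had 900.1 against 55.6 for rdgBbeta. sncRNA:CR43603 had 321 from 234 reads against 153 from 91 reads for Txl. Its TSS (chr3L:5764887, minus strand) lay near the 3′ end of this RNA, which is annotated from 5764861 to 5765046. The RNA also overlaps CG10576 on the same strand. These pairs were chosen for the coverage of the ncRNA side, so their order is a description.

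**Figure D5:**
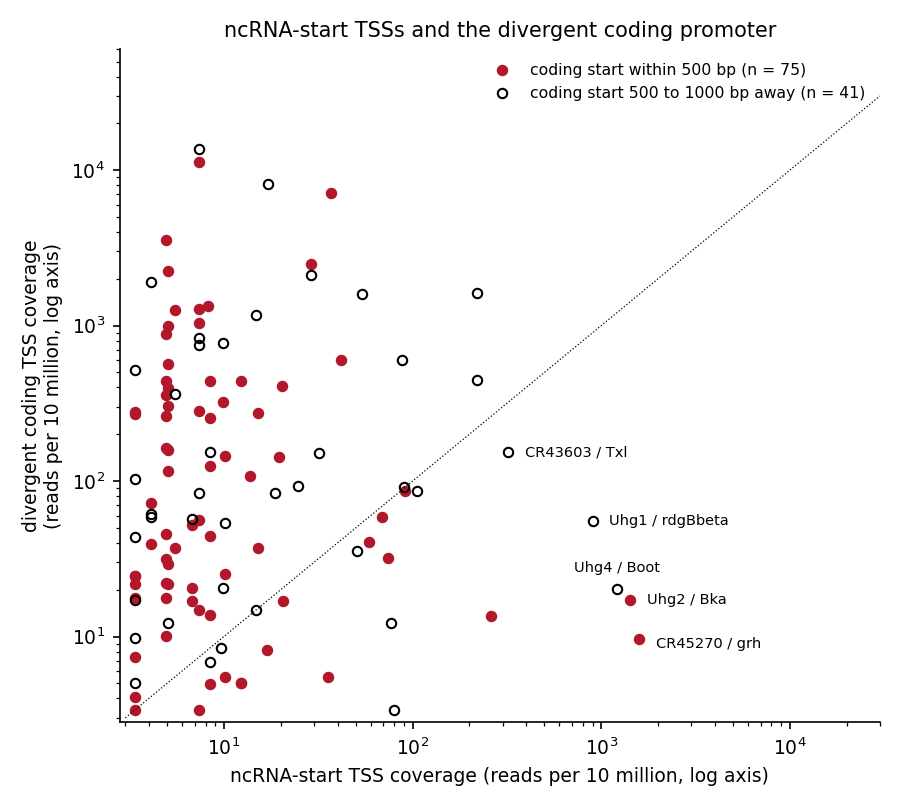
Coverage (reads per 10000000, log axes) of each ncRNA-start TSS and of the most covered TSS at a divergent coding start up to 1000 bp upstream. The nearest such start lay within 500 bp in 75 pairs (red) and farther away in 41 (open). Points above the dotted line have the coding side higher (90 of 116), and the 5 named pairs lie below it.

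The same held for the nearest coding gene in either orientation. It had a retained TSS for 424 ncRNA starts. The value taken was that of its most covered TSS over all starts of the gene, which need not be the nearest start. This value was higher than the ncRNA start in 357 (84.2%, 80.4 to 87.4), with medians of 7.37 at the ncRNA start and 150 at the coding gene. Such a maximum favours the coding side, and the same count was not made for other TSSs. Spearman's rho between both values was -0.05 over these 424 pairs, given as a description, since neighbours share a locus and each value comes from 1 library. For the 43 of the 56 ncRNA starts of 100 or more with such a neighbour, the coding start was higher in 10. A choice by coverage on 1 side favours that side, so this count was read no further.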

How the data were processed

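The authors aligned trimmed csRNA-seq reads to dm6 with STAR, called TSSs from read 5′ ends with HOMER (minimum 3), and deposited 1 coverage value (a signal) per TSS, for a full list and for TSSs retained after deduplication of overlapping windows of 200 bp on each side. The submitters' processing notes name bcl2fastq 2.17, HOMER 4.11, STAR 2.7.9a and bedtools 2.30.0. The windowed list and the deposited log2 scores were not used here.

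All 232302 deposited values could be turned back into whole reads of 1 library (relative tolerance 1e-09). Starts came from Ensembl release 115 (BDGP6.54, the coordinates of dm6), without transposable element genes. Of the retained TSSs, 180 and of the ncRNA genes, 15 lay off the main chromosome arms. Groups of ncRNA genes were taken from the annotation alone, as defined beside each result. Low depth limits single values: a lowest value is 2 or 3 reads. PCR copies are not told apart, so intervals cover counting only.

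Genes were named by rule: the 10 most covered, a list of characterised ncRNAs, the 5 most covered divergent pairs, and those at the 200 bp limit. Hosts and several antisense genes were added after their values were seen. The members and lists were chosen with earlier results of these data known. Alternatives were the distance limit, the coding exclusion, at least 4 reads, long genes only, the full list, peak width, minimum total and pair distance. Sequences and motifs were not analysed here, since no genome was used. Functions were tested on simulated data. The analysis used SciPy 1.17.1, matplotlib 3.10.9, NumPy 2.4.6 and pandas 2.3.3 in Python 3.11.15.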

Additional observations from a re-analysis of the deposited data

How the results depend on the processing

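Of 38 alternatives, 17 left the value within its interval (a count within 1.5 times) and 21 moved it, and the cause was not tested. The 537 ncRNA starts became 319 within 50 bp, 863 within 500 bp and 309 with at least 4 reads. The share of ncRNA genes with a TSS (20.4%) became 11.3%, 31.6% and 11.1% in that order, 18.0% with long genes only, and 17.8% without microRNA entries. The median coverage (7.37) became 10.1 within 50 bp, 6.74 within 500 bp, 16.9 with at least 4 reads and 5.48 over the full list. With at least 4 reads the medians were 16.9 at ncRNA starts, 60.7 at coding starts and 9.83 away from starts, so their order was kept. The share with a coverage of at least 10 (41.7%) became 50.8% within 50 bp, 33.8% within 500 bp, 72.5% with at least 4 reads and 37.1% without hosts. The share of concentrated clusters (34.5%) became 66.3% with 5 bp on each side counted, and 50% at a summed coverage of at least 50. The share with a divergent coding start (16.9%) became 9.12% at 200 bp and 25.5% at 1000 bp. The share of divergent pairs with the coding side higher (78.7%) became 62.2% (46.1 to 75.9) with at least 4 reads, over 37 pairs. That minimum was set at the ncRNA start only, which favours the ncRNA side. Settings that leave out microRNA entries or hosts, those for microRNA hosts and those for the order within pairs were chosen after seeing the data. The share of microRNA hosts with a TSS stayed within its interval at 50 bp (75.7%) and with at least 4 reads (81.1%).

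The share of TSSs with C before and A at the start was not run, with its alternatives, since no genome was used. Leaving out a library in turn was not run, because a TSS has only 1 value. No paired analysis was possible because a TSS has a value from 1 library only, with no second value to pair it with. At 3 reads or fewer, as at 42.5% of ncRNA starts, depth limits any order of single values.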
